A study of Mus musculus with 16 samples.

Results

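Dendritic spines are the small protrusions that receive most excitatory synapses, and beneath the membrane of each spine lies the postsynaptic density, a sheet of scaffold proteins. RNA of 8 genes that build or anchor this structure was followed in the brains of 16 female mice. The genes were Ppp1r9a and Ppp1r9b, which encode neurabin and spinophilin, Dlg4, the 3 Shank genes, Homer1 and Camk2a. They were taken by symbol from a table of 55487 genes, each symbol matched a single row, and all 8 passed the filter on low counts with which 18609 genes were tested. Ppp1r9b was chosen by the study on the contrast of evacetrapib with vehicle over these same mice, so its values in that contrast, and those of the genes grouped with it, are given as a description.

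The mice were heterozygous for a human CETP transgene (CETPtg) or for CETP together with a human APP transgene that carries the Swedish and Indiana mutations (APPtg/CETPtg), on a C57BL/6J background. CETP, the cholesteryl ester transfer protein, moves neutral lipids between plasma lipoproteins and is not made by mice without the transgene, and evacetrapib inhibits it. All mice ate a diet with 1% cholesterol from 11 weeks of age, and each received evacetrapib at 30 mg/kg per day or its vehicle for 11 weeks. There were 4 mice in each of the 4 groups of genotype and treatment, and no mouse lacked the CETP transgene. The APP transgene is driven by the Thy1 promoter, which is active in neurons, and the genotypes differ in this transgene, while both keep the mouse App gene. The tissue was bulk brain, in which fewer cells of a type and less RNA per cell cannot be told apart.

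The scaffold works in layers. PSD95, the product of Dlg4, binds the tails of NMDA receptors and holds AMPA receptors through their auxiliary subunits, Shank proteins form a deeper platform that links it to Homer proteins and to actin, and Homer ties Shank to metabotropic glutamate receptors. Neurabin and spinophilin bind actin filaments and carry protein phosphatase PP1 into the spine, where it opposes kinases such as CaMKII, whose alpha subunit is among the most abundant proteins of the forebrain postsynaptic density.

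Library totals ran from 21391335 to 55453789 counts. Apart from 1 mouse, the APPtg/CETPtg libraries were shallower, with 21391335 to 27398792 counts, than the CETPtg libraries with 28626139 to 46800787. Xist was at 537 or more in every mouse on the scale of CPM, counts divided by a scaled library size, and 4 Y-linked genes had at most 1 read in any mouse. Thy1, which marks the transgene promoter, ran from 684 to 807 CPM in CETPtg and from 865 to 2060 CPM in APPtg/CETPtg mice, without overlap. No 2 libraries of a group agreed within sampling noise (chi-square per degree of freedom 4.59 to 20.6 over 24 pairs). Neuron markers were present in all mice, with a summed level of 8940 to 9340 CPM in CETPtg vehicle, 8920 to 10200 in CETPtg evacetrapib, 9120 to 9570 in APPtg/CETPtg vehicle and 8800 to 9480 CPM in APPtg/CETPtg evacetrapib mice. Markers that belong to the olfactory bulb ranged from 14.6 to 174 CPM and those of the hypothalamus from 0.388 to 119 CPM, and both varied among the mice of every group. The labels place the genotypes in different columns of the index plate and the treatments in different rows, so genotype and column, and treatment and row, cannot be told apart.

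Promoter windows from RefSeq (GRCm38.p6) were held for 5 of the 8 genes: Ppp1r9a, Ppp1r9b, Dlg4, Shank3 and Homer1. The windows of 3 genes are shown because neurabin and spinophilin, close relatives in function, differed in their pattern over the groups, and because Homer1 varied most from mouse to mouse. Each is on the plus strand and covers the 250 bases before a RefSeq transcript start, except that the Ppp1r9b window stops where an annotated exon begins, after 73 bases. The Ppp1r9a and Homer1 windows lie inside the gene as annotated by GENCODE, outside its exons. Capitals mark the letters TGACG, the core of the cAMP response element, or CACGTG, the E-box, searched on both strands (TGACG reads CGTCA on the other, and CACGTG is its own reverse complement, with no overlap between the motifs found).
Ppp1r9a, chr6:4903061-4903310: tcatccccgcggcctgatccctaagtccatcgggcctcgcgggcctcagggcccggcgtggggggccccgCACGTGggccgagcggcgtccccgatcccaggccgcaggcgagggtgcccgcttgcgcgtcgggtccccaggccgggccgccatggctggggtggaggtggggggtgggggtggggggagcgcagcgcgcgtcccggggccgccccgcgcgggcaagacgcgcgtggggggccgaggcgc
Ppp1r9b, chr11:94990962-94991034: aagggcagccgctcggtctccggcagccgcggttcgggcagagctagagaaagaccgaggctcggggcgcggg
Homer1, chr13:93303507-93303756: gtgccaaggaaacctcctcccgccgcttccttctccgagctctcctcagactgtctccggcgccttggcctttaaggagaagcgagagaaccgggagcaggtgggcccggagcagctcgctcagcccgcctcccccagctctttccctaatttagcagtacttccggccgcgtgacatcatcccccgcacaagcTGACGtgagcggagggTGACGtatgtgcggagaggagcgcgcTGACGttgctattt
This Homer1 window holds TGACG 3 times, and 17.8% of 32851 windows of the same length in the table hold it at least once on either strand. This Ppp1r9a window holds CACGTG once, and 6.02% of all windows hold it at least once. The 73 bases of Ppp1r9b hold neither motif. Its full 250 bases, which run into the exon, also hold neither and have 78% GC. Homer1 and Ppp1r9a each have a second window, not shown, with neither motif and with 46.8% and 65.2% GC. GC content was 81.2% in the Ppp1r9a window shown, 72.6% in the Ppp1r9b stretch and 62.4% in the Homer1 window shown, against a median of 52.4% over all windows. A match to these letters is a description of the sequence and was not tied to binding of any factor.

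Levels per kilobase of exon spanned a wide range. Camk2a was highest at 448 ± 45.5 CPM per kilobase (SD, n = 16), and Ppp1r9b followed at 228 ± 21.2. Shank1 at 56.9 ± 7.44 and Dlg4 at 56.5 ± 4.69 could not be ordered, since Shank1 was above Dlg4 in 8 of 16 mice. Shank3 at 36.6 ± 2.53, Ppp1r9a at 27.2 ± 2.91, Shank2 at 18 ± 1.45 and Homer1 at 12 ± 2.15 came next, and between neighbours from Dlg4 downwards the higher gene was above the lower in all 16 mice. Spinophilin RNA was thus above neurabin RNA in every mouse on this scale. The order depends on the length used. Per kilobase of the longest transcript, Dlg4 stood at 118 ± 9.82, above Shank1 at 60.9 ± 7.96 in 16 of 16 mice, and Homer1 at 25.1 ± 4.51 was above Shank2 at 21.5 ± 1.74 in 13 of 16.

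**Figure D1:**
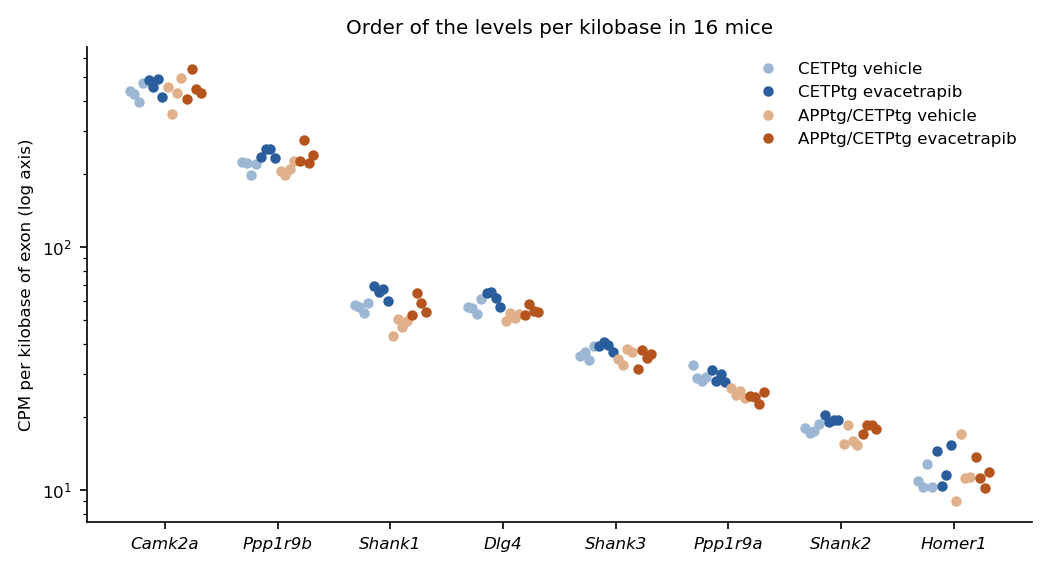
Level of each gene in CPM per kilobase of exon (vertical log axis) for every mouse, coloured by group. Camk2a and Ppp1r9b lie above the other 6 genes in all 16 mice, and the points of Shank1 and Dlg4 share one range.

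The genotypes were compared to ask whether spine scaffold RNA differs in mice that also express APP. Ppp1r9a, Shank1, Dlg4 and Shank2 were lower in APPtg/CETPtg than in CETPtg mice over both treatments, by 16.6%, 14%, 9.9% and 8.3%, while Shank3, Ppp1r9b, Camk2a and Homer1 did not pass the test. Differences were called by the quasi-likelihood test of edgeR at an adjusted p of at most 0.05 over all genes tested and a change of at least 5%. By that rule 4 of the 8 genes were called, all 4 lower, where 17.7% of all genes tested were called and 8.38% were called and lower. With the counts of every mouse drawn down to the smallest total, the same 4 genes were called. Without a treatment term 3 were called, Shank2 being lost, and with the trend on GC content and exon length removed 2 were called, Ppp1r9a and Shank1. The median log2 fold change of the 8 was -0.11 and that of all genes 0.00459.

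**Figure D2:**
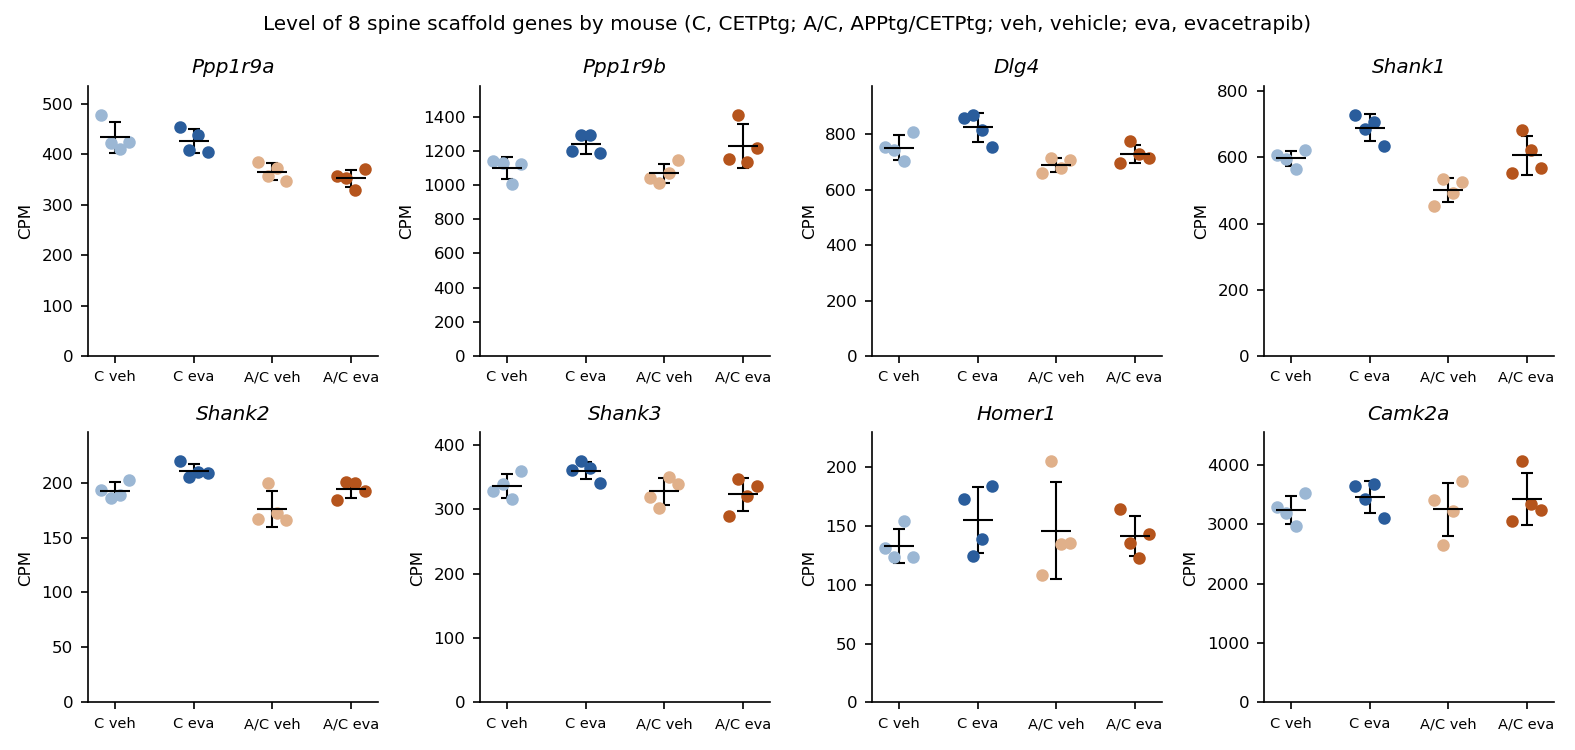
CPM (vertical axis, from 0) of each gene in each mouse, by group, with the mean and SD of 4 mice as bars. For Ppp1r9a the 8 APPtg/CETPtg mice lie below the 8 CETPtg mice, and for Shank1 the APPtg/CETPtg vehicle mice are lowest.

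Ppp1r9a (ENSMUSG00000032827) lies at chr6:4902917-5165661 of GRCm38 on the plus strand. Vehicle-treated CETPtg mice had 478, 422, 411 and 425 CPM and evacetrapib-treated CETPtg mice 454, 408, 439 and 405 CPM. Vehicle-treated APPtg/CETPtg mice had 385, 357, 374 and 348 CPM and evacetrapib-treated APPtg/CETPtg mice 356, 352, 330 and 371 CPM. Every APPtg/CETPtg mouse was thus below every CETPtg mouse, a separation found for 3.03% of the genes tested. The log2 fold change was -0.26 ± 0.0383 (SE, edgeR adjusted p = 0.000181). It was -0.25 ± 0.0551 within vehicle (edgeR adjusted p = 0.00908) and -0.28 ± 0.0552 within evacetrapib (edgeR adjusted p = 0.0132), and the latter call was lost without CETPtg evacetrapib mouse A (-0.25, edgeR adjusted p = 0.0572). With the trend on GC content and length removed, the value over both treatments was -0.15, still called, and those within vehicle (-0.10, edgeR adjusted p = 0.288) and within evacetrapib (-0.19, edgeR adjusted p = 0.0834) were not.

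Spinophilin RNA did not share this pattern. Ppp1r9b (ENSMUSG00000038976, chr11:94991035-95006899) had 1138, 1130, 1007 and 1121 CPM in CETPtg vehicle mice and 1196, 1290, 1294 and 1188 CPM in CETPtg evacetrapib mice. APPtg/CETPtg vehicle mice had 1043, 1011, 1069 and 1147 CPM and APPtg/CETPtg evacetrapib mice 1150, 1410, 1132 and 1215 CPM. The genotypes overlapped under both treatments, with a log2 fold change of -0.03 ± 0.0452 over both (edgeR adjusted p = 0.707). With the trend on GC content and length removed, the value was -0.07 ± 0.0504 (edgeR adjusted p = 0.448). Whether Ppp1r9b and Ppp1r9a differ in their genotype difference was not tested.

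Dlg4 (ENSMUSG00000020886, chr11:70016942-70047522), the gene of PSD95, had 754, 742, 702 and 809 CPM in CETPtg vehicle and 859, 870, 816 and 755 CPM in CETPtg evacetrapib mice. In APPtg/CETPtg mice it had 662, 714, 677 and 707 CPM under vehicle and 697, 776, 728 and 715 CPM under evacetrapib. The highest APPtg/CETPtg mouse reached into the CETPtg range under each treatment. Its log2 fold change between genotypes was -0.15 ± 0.0378 (edgeR adjusted p = 0.00915). Within vehicle it was -0.12 ± 0.0539 and within evacetrapib -0.18 ± 0.0539, and neither passed (edgeR adjusted p = 0.155 and 0.0753). The value within evacetrapib passed without CETPtg evacetrapib mouse D (-0.22, edgeR adjusted p = 0.0371) and with all mice under DESeq2 (adjusted p = 0.0201). The call over both treatments was lost with the trend on GC content and length removed (-0.06, edgeR adjusted p = 0.435).

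Of the Shank platform genes, Shank1 (ENSMUSG00000038738, chr7:44310253-44360572) differed most. CETPtg vehicle mice had 606, 595, 565 and 621 CPM and APPtg/CETPtg vehicle mice 455, 533, 494 and 525 CPM, without overlap. Under evacetrapib CETPtg mice had 729, 687, 708 and 634 CPM and APPtg/CETPtg mice 553, 683, 622 and 567 CPM, and mouse F of the latter group overlapped. The log2 fold change was -0.22 ± 0.0461 over both treatments (edgeR adjusted p = 0.00291). Within vehicle it was -0.25 ± 0.0657 (edgeR adjusted p = 0.0214), a call lost without APPtg/CETPtg vehicle mouse S5 (-0.21, edgeR adjusted p = 0.0631) and with the trend on GC content and length removed (-0.23, edgeR adjusted p = 0.0715). Within evacetrapib it was -0.19 ± 0.0656 (edgeR adjusted p = 0.126). Reads of a gene on the opposite strand whose exons overlap Shank1, 1700008O03Rik, came to 770 over the 16 mice.

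Shank2 (ENSMUSG00000037541, chr7:144001928-144424494) had 194, 186, 188 and 203 CPM in CETPtg vehicle and 219, 205, 209 and 209 CPM in CETPtg evacetrapib mice. APPtg/CETPtg mice had 166, 200, 172 and 166 CPM under vehicle and 184, 201, 199 and 193 CPM under evacetrapib. The genotypes overlapped under vehicle through mouse S6 of the APPtg/CETPtg group and did not overlap under evacetrapib. Its log2 fold change over both treatments was -0.13 ± 0.0375 (edgeR adjusted p = 0.0254), and the call was lost without APPtg/CETPtg vehicle mouse S8 (-0.11, edgeR adjusted p = 0.0584), with the trend removed (-0.11, edgeR adjusted p = 0.0603) and without a treatment term. Within vehicle it did not pass with all mice and passed without mouse S6 (-0.21, edgeR adjusted p = 0.00976).

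Shank3 (ENSMUSG00000022623, chr15:89499623-89560261), the family member mutated in Phelan-McDermid syndrome, had 328, 339, 316 and 359 CPM in CETPtg vehicle and 361, 374, 363 and 341 CPM in CETPtg evacetrapib mice. It had 319, 302, 350 and 339 CPM in APPtg/CETPtg vehicle and 289, 347, 321 and 336 CPM in APPtg/CETPtg evacetrapib mice. The genotypes overlapped under both treatments, and the log2 fold change of -0.09 ± 0.0431 did not pass (edgeR adjusted p = 0.142).

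Homer1 (ENSMUSG00000007617, chr13:93299635-93405129) was the most variable of the 8, with a coefficient of variation of 18% over the 16 mice against 6.9% for Shank3. Its count joins a long form that crosslinks Shank and a short form that neuronal activity induces, which were not separated. CETPtg mice had 131, 123, 154 and 123 CPM under vehicle and 173, 124, 138 and 184 CPM under evacetrapib, and APPtg/CETPtg mice 108, 205, 134 and 136 CPM under vehicle and 164, 135, 123 and 143 CPM under evacetrapib. All 4 groups overlapped, with a log2 fold change of -0.002 ± 0.109 between genotypes (edgeR adjusted p = 0.995). The highest value, 205 CPM, was that of APPtg/CETPtg vehicle mouse S6, and without it the log2 fold change was -0.11 ± 0.081 (edgeR adjusted p = 0.385). The same mouse had the highest level of Fosb, an immediate early gene, with 48.6 CPM against 10.4 to 25.1 in the other 15.

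Camk2a (ENSMUSG00000024617, chromosome 18, positions 60925618 to 60988152) had 3294, 3195, 2966 and 3530 CPM in CETPtg vehicle and 3649, 3421, 3684 and 3104 CPM in CETPtg evacetrapib mice. APPtg/CETPtg mice had 3409, 2643, 3224 and 3722 CPM under vehicle and 3055, 4058, 3347 and 3235 CPM under evacetrapib. The groups overlapped throughout, and the log2 fold change between genotypes was -0.01 ± 0.0665 (edgeR adjusted p = 0.956).

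Within each treatment the counts were smaller. Under vehicle 2 of the 8 genes were called, Ppp1r9a and Shank1, where 10.4% of all genes were, and the same pair had groups that did not overlap, where 17% of all genes did. Under evacetrapib 1 of the 8 was called, Ppp1r9a, where 2.99% of all genes were, and Ppp1r9a and Shank2 had groups that did not overlap, where 10.8% of all genes did.

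**Figure D3:**
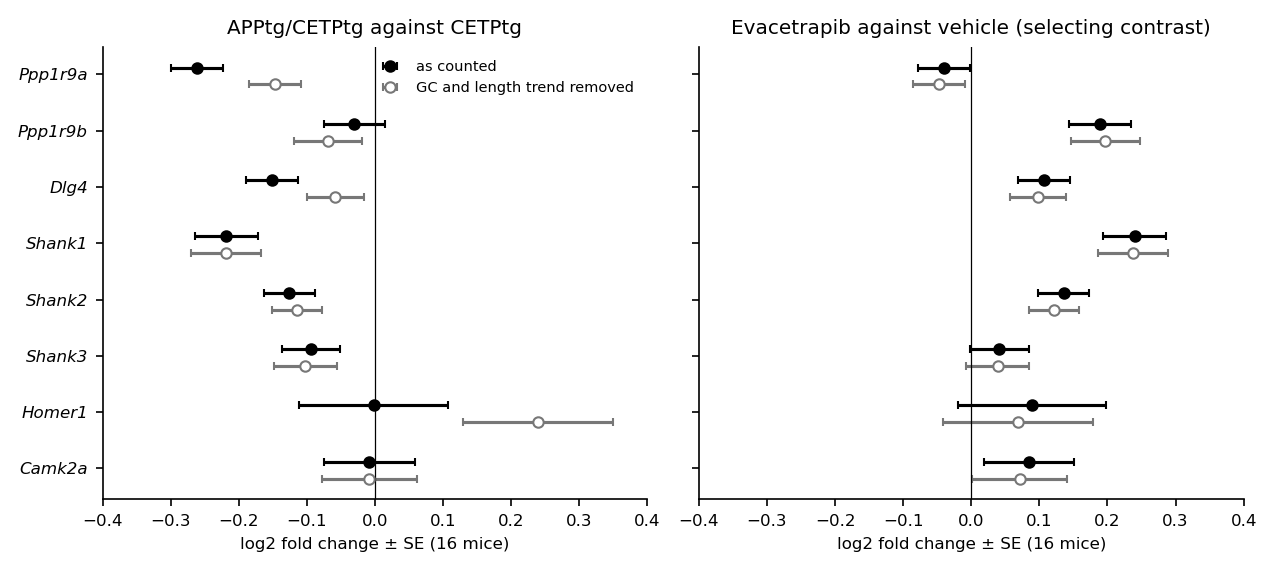
Log2 fold change ± SE of each gene (horizontal axis) between genotypes (left) and between treatments (right), over 16 mice. Filled points are as counted, and open points have the trend on GC content and exon length removed. Between genotypes Ppp1r9a and Dlg4 move towards 0 and Homer1 to 0.24 when the trend is removed, while Shank1 stays at -0.22; the treatment values barely move.

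Base composition and transcript length moved with the genotype across the whole table. Genes whose longest transcript has 38 to 42% GC had a median log2 fold change of -0.11 between genotypes and those with 58 to 62% GC one of 0.08. Genes with transcripts of 1 to 2 kilobases had a median of 0.083 and those of 7 to 9 kilobases one of -0.107. The genes called lower all have long transcripts, of 6326 bases for Dlg4, 8988 for Shank2, 9547 for Ppp1r9a and 9826 for Shank1. Their GC content differs, at 45.6% for Ppp1r9a and 46.8% for Dlg4 but 55% for Shank2 and 61.4% for Shank1, with a median of 49.7% over the genes tested. Of the genes not called, Shank3 has a transcript of 7365 bases, longer than that of Dlg4. Homer1 has 5713, Camk2a 4970 and Ppp1r9b 4508 bases. The trend removed was on GC content and on the length of all exons of a gene joined. That length is 14531 bases for Ppp1r9a, 13251 for Dlg4, 10768 for Shank2 and 10514 for Shank1. With this trend removed, Ppp1r9a at -0.15 ± 0.0379 (edgeR adjusted p = 0.0199) and Shank1 at -0.22 ± 0.0512 (edgeR adjusted p = 0.0117) were still called. Dlg4 at -0.06 ± 0.0417 (edgeR adjusted p = 0.435) and Shank2 at -0.11 ± 0.0368 (edgeR adjusted p = 0.0603) were not, and within either treatment none of the 8 was called. The part of this trend in the genotype difference was not tested further.

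**Figure D4:**
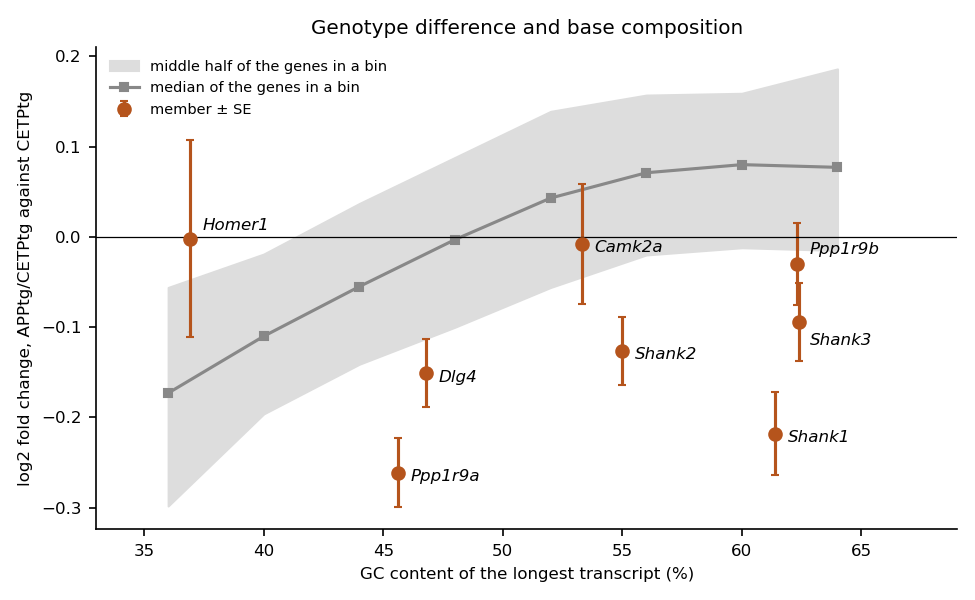
Log2 fold change between genotypes (vertical axis) against GC content of the longest transcript (horizontal axis, %). The grey line and band give the median and middle quartiles of all genes tested in each GC bin, with the open end bins drawn beside their neighbours, and points give the 8 genes ± SE; Shank1, at 61.4% GC, lies furthest below the median of its bin.

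Evacetrapib was compared with vehicle to ask what CETP inhibition changes in the brain, and this is the contrast that selected Ppp1r9b. Its log2 fold change was 0.19 ± 0.0452 (SE) over both genotypes, 0.18 ± 0.065 in CETPtg and 0.20 ± 0.065 in APPtg/CETPtg mice. All 4 evacetrapib mice were above all 4 vehicle mice in CETPtg, whereas in APPtg/CETPtg mice the lowest evacetrapib value of 1132 CPM was below the highest vehicle value of 1147 CPM. Shank1 had the largest value of the 8, at 0.24 ± 0.0461 over both genotypes, 0.21 ± 0.0655 in CETPtg and 0.27 ± 0.0658 in APPtg/CETPtg mice. It was the single gene of the 8 whose evacetrapib and vehicle mice did not overlap in either genotype. The closest pair was 634 against 621 CPM in CETPtg and 553 against 533 CPM in APPtg/CETPtg.

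The other values were 0.14 ± 0.0375 for Shank2, 0.11 ± 0.0378 for Dlg4, 0.09 ± 0.109 for Homer1, 0.08 ± 0.0665 for Camk2a, 0.04 ± 0.0431 for Shank3 and -0.04 ± 0.0383 for Ppp1r9a. The edgeR test called 0 of the 8 in this contrast, where it called 2 of 18609 genes or 0.0107% (1472 at an unadjusted p under 0.05). DESeq2, the tool with which the study chose its genes, called 2 of the 8 here, Ppp1r9b and Shank1, among 59 genes. None of the 8 separated the 8 evacetrapib from the 8 vehicle mice, as 0.0537% of all genes did. In CETPtg mice Ppp1r9b, Shank1 and Shank2 did not overlap between treatments, where 3.92% of all genes did not, and edgeR called 0 of the 8 and 0% of all genes. In APPtg/CETPtg mice Shank1 did not overlap, where 4.29% of all genes did not, and edgeR called 0 of the 8 and 0.043% of all genes. Since the genes were grouped with this contrast known, nothing is read from these counts. Vascular markers are given beside these values. Of 6 mural cell markers 1 was called higher between treatments, with a summed level of 98.5 to 133 CPM under vehicle and 130 to 147 CPM under evacetrapib, and of 7 endothelial markers none was called, with a summed level of 153 to 209 CPM under vehicle and 193 to 240 CPM under evacetrapib. Their part in the scaffold values was not tested.

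Whether the treatment difference depends on genotype was tested by the interaction. It was 0.02 ± 0.0919 for Ppp1r9b and 0.07 ± 0.0928 for Shank1 on the log2 scale, and between -0.26 ± 0.214 for Homer1 and 0.01 ± 0.0766 for Shank2 in the other 6. The edgeR test called 0 of the 8 (adjusted p from 0.786 to 0.987, 0 of the 8 at an unadjusted p under 0.05), as it called 0% of all genes, with 1271 of 18609 at an unadjusted p under 0.05 and 2 called by DESeq2. The SE of these interactions, from 0.0761 for Dlg4 to 0.214 for Homer1, sets what could be seen. The Homer1 value was -0.06 ± 0.164 without mouse S6.

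Mice of the same group also differed from each other, and some of the genes varied together. With group means removed from log2 CPM, Dlg4 and Shank1 had a Pearson r of 0.82 over the 16 mice (Spearman rho 0.85, r from 0.79 to 0.88 leaving out each mouse). Among Ppp1r9b, Shank3 and Camk2a r was 0.76 for Ppp1r9b and Camk2a, 0.73 for Shank3 and Camk2a and 0.70 for Ppp1r9b and Shank3. These genes were not separate from the first pair, since r was 0.58 for Dlg4 and Shank3, 0.56 for Ppp1r9b with Dlg4 and with Shank1, and 0.50 for Dlg4 and Camk2a, and Shank1 and Shank2 had 0.60. Homer1 had r of -0.65 against Camk2a (rho -0.56, r from -0.72 to -0.40 leaving out each mouse) and -0.59 against Shank3 (rho -0.47, r from -0.77 to -0.46). Ppp1r9a followed no other member, with r from -0.10 to 0.19, and its r with Ppp1r9b was 0.16. Of 28 pairs 10 had r over 0.5 and 10 were below 0. The values of a pair come from the same libraries and share their depth and base composition, and with the trend on GC content and length removed the r of Ppp1r9a with Ppp1r9b was 0.54 and that of Shank3 with Camk2a 0.90.

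**Figure D5:**
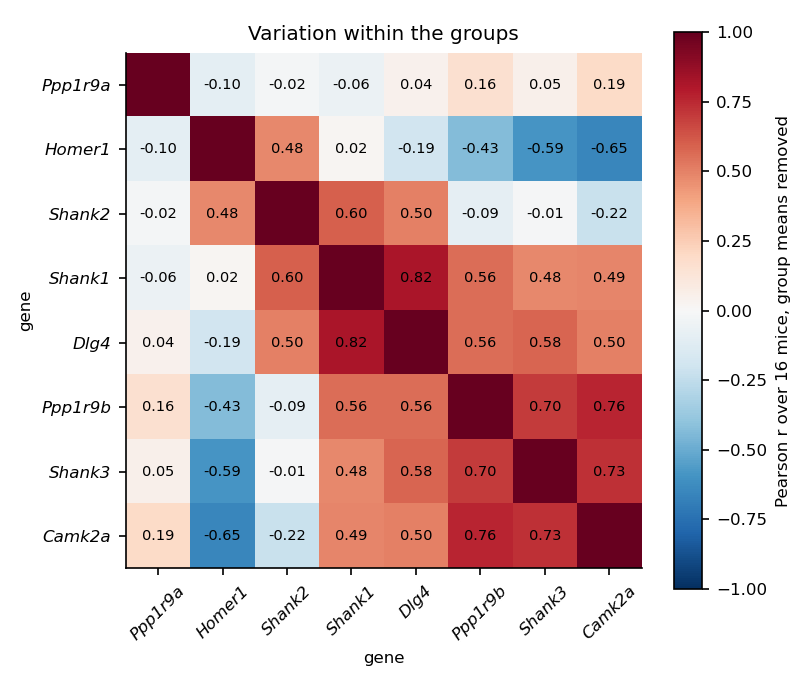
Pearson r between the genes (rows and columns) over 16 mice after removal of group means from log2 CPM, from -1 (blue) to 1 (red). Ppp1r9b, Shank3 and Camk2a share r of 0.70 or more, Homer1 is negative against each of them, and Ppp1r9a is near 0 against all.

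Marker levels that differ from mouse to mouse are set beside these genes. Within groups, Camk2a had r of -0.83 with the summed olfactory bulb markers and -0.84 with the cerebellum markers, where Homer1 had 0.63 and 0.60. Ppp1r9b had -0.67 and -0.63, while Shank1 had -0.20 and -0.27. The cerebellum markers were low, at 5.31 to 20.1 CPM summed over 5 genes. How far the r with markers depend on single mice was not tested. Dlg4 and Shank1 had r of 0.77 and 0.69 with cortex markers, 0.68 and 0.63 with neuron markers, 0.63 and 0.83 with astrocyte markers and 0.62 and 0.47 with microglia markers. Under vehicle the summed astrocyte markers, like Shank1, did not overlap between genotypes, where 17% of all genes did not. These markers were at 2780 to 3290 CPM in APPtg/CETPtg and 3370 to 3630 CPM in CETPtg mice. Under evacetrapib both overlapped, with the markers at 3170 to 3470 CPM in APPtg/CETPtg and 3450 to 3820 CPM in CETPtg mice. The part of astrocyte markers in the Shank1 difference was not tested. Striatum markers had r of -0.78 with Homer1, -0.64 with Shank2 and 0.55 with Shank3. APPtg/CETPtg vehicle mouse S6, with the highest Homer1 and the lowest Camk2a of all mice, had 162 CPM of olfactory bulb markers against 14.6 to 57.9 in the other 3 mice of its group, and 782 CPM of striatum markers against 1010 to 1130. The part of tissue sampling in the values of the 8 genes was not tested.

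Other genes were ranked by the same measure against each of the 8. Nearest to Ppp1r9a were Cyld, a deubiquitinase of the postsynaptic density (r = 0.88), Adam22, a receptor for LGI1 that binds PSD95 (0.86), and 0610010F05Rik (0.83). Nearest to Ppp1r9b were Ptpre (0.93), Nxph3 (0.92) and Dusp8 (0.89). Near Dlg4 were St3gal5 (0.92) and Smim20 (0.90), and nearest to Shank1 were Cpe (0.92), Ctnnd2, the delta catenin of dendrites (0.92), and Asb8 (0.91). Shank2 was nearest to Prrt3 (0.91), Synpo, which encodes synaptopodin of the spine apparatus (0.90), and Rin2 (0.89), and Shank3 to Gm8730 (0.93), Epb41l1 (0.89) and Gm10699 (0.88). Homer1 was nearest to Medag (0.95), Rheb (0.94) and Xpo1 (0.94), and Camk2a to Lypd6 (0.94), Rnf144b (0.93) and Dgkz, a diacylglycerol kinase (0.93). None of the 8 was among the nearest 3 of another. The order changed with the trend on GC content and length removed. Ptpre then had 0.80 with Ppp1r9b and Nxph3 0.96, and St3gal5 had 0.81 with Dlg4 and Smim20 0.95. Gm8730, at a mean of 2.28 CPM, had 0.71 with Shank3 and Epb41l1 0.92. All of these r were picked as the highest of 18608 values each over 16 mice, and nothing is read from them.

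The following lists were set against the 17.7% of all genes tested that were called between genotypes. Of 22 other scaffold genes of the postsynaptic density 3 were called, a share below that of all genes: Dlg2, a relative of Dlg4, at -0.10 ± 0.0339 (edgeR adjusted p = 0.0421), Iqsec1, an exchange factor for ARF GTPases, at -0.14 ± 0.0374 (edgeR adjusted p = 0.0143), and Pick1, a PDZ protein that binds AMPA receptors, at 0.20 ± 0.0487 (edgeR adjusted p = 0.00762). Their median log2 fold change was -0.049. With the trend removed Pick1 was still called, Dlg2 and Iqsec1 were not, and the median was 0.002.

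Of 14 receptors and adhesion proteins that the scaffold anchors 6 were called, all lower in APPtg/CETPtg mice, where 8.38% of all genes were called and lower, and the median was -0.108 against 0.005 over all genes. Grin2b and Grin2a, subunits of the NMDA receptor, were at -0.34 ± 0.0602 (edgeR adjusted p = 0.000777) and -0.19 ± 0.0499 (edgeR adjusted p = 0.0112). Nlgn1, Nlgn2 and Nlgn3, the postsynaptic neuroligins, were at -0.17 ± 0.0422, -0.17 ± 0.0318 and -0.35 ± 0.0604, and Grm5, the metabotropic receptor that Homer binds, was at -0.17 ± 0.0439. With the trend removed 3 were still called lower, Grin2b, Nlgn2 and Nlgn3, 2 were called higher, the AMPA receptor genes Gria2 at 0.17 and Gria3 at 0.13 (the latter named after its value was seen), and the median was -0.038.

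A list of 6 PP1 subunits and inhibitors covers the phosphatase that neurabin and spinophilin carry. The catalytic subunit gene Ppp1ca was higher in APPtg/CETPtg mice at 0.15 ± 0.0317 (edgeR adjusted p = 0.00275). Ppp1cb was lower at -0.21 ± 0.0493 (edgeR adjusted p = 0.00611), and neither was called with the trend removed. Ppp1cc, at 0.13 ± 0.0649, was not called (edgeR adjusted p = 0.185). Ppp1r1b, which encodes the PP1 inhibitor DARPP32 of striatal neurons, was at -0.02 ± 0.0753. Of 18 regulators of spine actin 3 were called higher, Cfl1 (cofilin, which severs actin filaments), Dbn1 (drebrin) and Baiap2, at 0.16, 0.14 and 0.13, and 4 were called lower, Pak3, Actn2, Rac1 and Actb, at -0.22, -0.16, -0.14 and -0.11. With the trend removed, Rac1, Actn2 and Actb were still called and none was called higher. Of 9 genes of CaMKII and calmodulin other than Camk2a none was called between genotypes, with a median of -0.037. Of 8 immediate early genes none was called over both treatments either, with a median of 0.215. Within vehicle Fos, Fosb, Egr2 and Junb were called higher in APPtg/CETPtg mice, where 10.4% of all genes were called in either direction. Within evacetrapib Npas4 was called lower, where 2.99% of all genes were called. Such calls within a single treatment were not particular to this list. The scaffold gene Tnik and the actin regulator Arpc2 were also called within vehicle alone, and the scaffold gene Magi2 within evacetrapib alone.

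In the treatment contrast over both genotypes none of these 77 genes was called by edgeR. The medians were 0.037 for scaffolds, 0.015 for receptors and adhesion, 0.008 for PP1 subunits and inhibitors, 0.005 for CaMKII and calmodulin, -0.012 for actin regulators and -0.457 for immediate early genes, against -0.001 over all genes. The highest values were those of Nlgn3 at 0.27 ± 0.0604, Dlgap3 at 0.12 ± 0.046, Grin2a at 0.11 ± 0.0499 and Homer2 at 0.10 ± 0.054. The lowest outside the immediate early genes were Ppp1r1b at -0.16 ± 0.0754, Actn2 at -0.12 ± 0.0543, Cnksr2 at -0.11 ± 0.0527 and Ppp1r2 at -0.10 ± 0.0463. Within APPtg/CETPtg mice the immediate early genes Npas4 and Junb were called lower under evacetrapib, where 0.043% of all genes were called. The interaction of the 8 immediate early genes had a median of -1.265, with 8 negative, against -0.001 over all genes, and none was called.

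Among the cell type lists, 4 of 7 oligodendrocyte markers were called lower in APPtg/CETPtg mice (median -0.199) and 3 of 7 microglia markers were called higher (median 0.134). Of 10 neuron markers 2 were called higher and 1 lower (median -0.02), of 8 astrocyte markers 1 was called higher and 2 lower, and of 7 endothelial markers 1 was called lower. Of 6 striatum markers 2 were called lower, of 7 cortex markers 2 were called higher and 1 lower, of 5 hippocampus markers 1 was called lower, and of 5 thalamus markers 1 was called higher and 2 lower. None of the mural cell or olfactory bulb markers was called. Only 2 of 5 hypothalamus and 3 of 5 cerebellum markers passed the filter on low counts, and none of those was called. With the trend on GC content and length removed, 2 oligodendrocyte, 1 astrocyte and 1 striatum markers were still called lower. In that setting 2 neuron markers and 1 microglia marker were called higher, and no marker of the other lists was called. No marker of any list was at 0 in all mice, and the part of these cell types in the genotype differences of the scaffold genes was not tested.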

How the data were processed

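Poly(A) RNA from bulk brain of 16 mice had been made into directional libraries and sequenced as read pairs. The authors trimmed reads with Trimmomatic 0.39, aligned them to mm10 with STAR 2.7.8a and counted them per gene with HTSeq, and the deposited values are raw counts, with no normalization. The gene annotation used for counting was not given in the sources used here. The FPKM values of the study were not used here. Of 55487 gene identifiers, 55227 are in GENCODE M21 (GRCm38), from which positions, lengths and GC content were taken.

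A gene entered the tests when 4 or more mice had 10 or more counts. The fits were made in edgeR 4.0.16 (R 4.3.3) with TMM scaling and the quasi-likelihood test, with a term for the other factor or with 4 group means, and Benjamini-Hochberg adjustment over 18609 genes. CPM uses TMM-scaled library sizes. Each library stands for 1 mouse. The script was tested on simulated data. The alternatives were DESeq2 1.42.0, limma 3.58.1 (voom), other scalings and filters, drawn-down counts, removal of a spline trend (4 df) on GC content and length, and leaving out each mouse. In that trend, GC content was that of the longest transcript and length that of all exons joined. A block for the numbers in the table's header was added after the data had been seen. Those numbers pair no mice in the labels, and of 24 same-numbered pairs 1 had a correlation over 0.1.

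Correlations used log2 CPM, to whose counts a prior of 2 was added. The 8 genes, the 6 pathway lists and the 13 marker lists were chosen with earlier results of these data known. Named were the 8 genes, in each pathway list the 2 highest and 2 lowest in the treatment contrast or genes called in any comparison, and the 3 genes most correlated with each of the 8. One of the latter is not reported here. Some qualifying genes are given only within their list's count.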

Additional observations from a re-analysis of the deposited data

Results flagged for a closer look

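Ppp1r9b in CETPtg vehicle mouse S3, at 1007 CPM, stood apart from the other 3 mice of its group, which had 1121 to 1138 CPM. Its distance to the nearest mouse was 0.874 of the range of the group, above the critical value of Dixon's test for 4 samples. This was the single such value among 32 sets of 4 mice, of which chance would flag about 1 in 20. The same mouse had the highest hypothalamus (119 CPM) and cerebellum (20.1 CPM) marker levels of all mice, and the part of these in its Ppp1r9b value was not tested. Without it, the log2 difference between evacetrapib and vehicle was 0.17 ± 0.0445 over both genotypes and 0.14 ± 0.0661 in CETPtg mice.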

How the results depend on the processing

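Of 1360 refits of the fold changes of the 8 genes, 9 lost a call and 8 gained one. In 60 the sign changed, over 15 of 56 fold changes, none of them called in either fit. The largest shift among these 60 was Homer1 between genotypes, 0.239 with the trend on GC content and length removed. Removing that trend left 1625 genes and 2 of the 8 called between genotypes, 870 and 0 within vehicle, and 148 and 0 within evacetrapib. DESeq2 called 59 genes and 2 of the 8 between treatments, 73 and 1 within APPtg/CETPtg mice, 1135 and 2 between genotypes within evacetrapib, and 2 genes for the interaction. Without a filter, 35 genes and 1 of the 8 were called between treatments, 9 genes within CETPtg, 88 and 1 within APPtg/CETPtg and 29 for the interaction. Without a genotype term 1 gene was called between treatments. With the block on header numbers 5 genes were called between treatments within APPtg/CETPtg mice, and that block moved no other count of genes by over 1.5 times and no count of the 8. Leaving out each mouse gave 0 to 8 genes between treatments, 0 to 14 within APPtg/CETPtg, 2503 to 3590 between genotypes, 909 to 1998 within vehicle, 91 to 858 within evacetrapib and 0 to 1 for the interaction. Of the 8 genes it gave 3 to 4 between genotypes, 1 to 3 within vehicle, 0 to 2 within evacetrapib and 0 in each treatment comparison. The median r of the 28 pairs, 0.175, was 0.107 to 0.383 leaving out each mouse and 0.451 with the trend removed. Causes were not tested beyond these alternatives. SE on the log2 scale were 0.0375 to 0.109 over 8 against 8 mice and 0.0538 to 0.152 over 4 against 4, which limits the differences that could be seen.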

Other observations

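The ratio of Ppp1r9b to Ppp1r9a within a mouse, which does not depend on library scaling, was looked at after the values had been seen and is given as a description. It was 2.54 ± 0.145 (SD, n = 4) in CETPtg vehicle, 2.92 ± 0.216 in CETPtg evacetrapib, 2.92 ± 0.258 in APPtg/CETPtg vehicle and 3.49 ± 0.356 in APPtg/CETPtg evacetrapib mice. The lowest mouse of all had 2.38 and was a CETPtg vehicle mouse, and the highest had 4.0 and was an APPtg/CETPtg evacetrapib mouse. Ppp1r9b and Ppp1r9a differ in GC content, at 62.3% and 45.6%, and this ratio was not corrected for the trend on GC content. The part of that trend in the ratio was not tested. The ratio of Shank1 to Shank3, 2 genes of like GC content (61.4% and 62.4%), was 1.78 ± 0.0519, 1.92 ± 0.0856, 1.54 ± 0.163 and 1.88 ± 0.127 in the same order of groups. In this ratio the APPtg/CETPtg vehicle mice ranged from 1.41 to 1.76 and the CETPtg vehicle mice from 1.73 to 1.85.

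Homer1 followed Fosb most closely among the 8 immediate early genes, with r of 0.80 over the 16 mice after removal of group means. Both were highest in APPtg/CETPtg vehicle mouse S6, and how much of this r rests on that mouse was not tested. With Arc, Fos and Egr1 its r was -0.12, 0.15 and 0.32, and with the mean of the 8 immediate early genes 0.14. The same mean had r of -0.50 with Ppp1r9b and -0.44 with Camk2a.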
